A study of Mus musculus with 6 samples.

Results

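Accessible chromatin was described at 41 genes for chromatin regulators: the Polycomb complexes, the enzymes that add or remove DNA methylation, histone deacetylases, histone methyltransferases and demethylases, the SWI/SNF and CHD remodellers, and 3 architectural proteins. A region was assigned to a gene when its midpoint lay in the gene body or within 10 kb of it (mm10). This gave 104 of the 43523 distinct regions, 61 of them promoters (of 14097) and 43 of them other regions (of 29426), at 39 of the 41 genes. Cbx2 and Cbx7 had no region by this rule, so that no accessibility is given for them. The cells were nephron progenitors of CD1 mice, the kidney population from which the epithelium of all nephrons arises, taken from embryos at E14.5 or from newborns at P0, with 3 libraries a stage. Each library came from the kidneys of a separate litter, up to 24 of them pooled, from which cells were drawn with Itga8 antibodies on magnetic beads. The labels name no mutation or treatment in either group. The assay, ATAC-seq, lets the transposase Tn5 cut open DNA, so that a count in a region rises with its accessibility.

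Polycomb repressive complex 2 (PRC2) places a repressive methyl mark on histone tails, and complex 1 (PRC1) binds that mark and ubiquitinates histones. The Dnmt enzymes methylate cytosines in CpG pairs and the Tet enzymes oxidise that mark, while deacetylases, SWI/SNF and CHD remodellers change how tightly nucleosomes hold DNA. In mouse nephron progenitors, deletion of Ezh2, of Dnmt1, or of Hdac1 together with Hdac2 is known to impair nephron formation. The comparison between stages asked whether the regulatory DNA of these genes was itself more or less open in progenitors of the newborn kidney than in those of the midgestation kidney.

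Counts in regions totalled 6492996 to 12292629 per library, the lowest in P0 replicate 2, and values below are CPM, which sets each count against its library's TMM-scaled total. P0 replicate 2 stood apart at promoters: it was the lowest of the 6 libraries in 49.4% of all promoter regions and in 36 of the 61 described here. Regions lay at 8 of 10 nephron progenitor markers. The progenitor marker promoters summed to 232 to 238 CPM at E14.5 and 200 to 260 CPM at P0, ranges that overlapped. The regions of these markers outside promoters summed to 150 to 155 CPM at E14.5 and 134 to 153 CPM at P0, and also overlapped. Over 6 marker lists, 4 of 70 regions passed the test used below (5.71%, against 4.73% of all regions). They were regions of Eya1 and Itga8, lower at P0, and of Pax8 and Cdh5, higher at P0. The 7 stromal, 8 ureteric and 7 blood and immune marker regions gave no call. In such bulk samples, fewer cells of a type and less open DNA per cell cannot be told apart.

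Promoters of these genes were rich in CpG pairs, and the windows below show examples. RefSeq (GRCm38.p6) gave 50 windows of the 250 bases before a transcription start for 34 of the 41 genes, and 39 windows at 29 genes lay under an accessible region. Those 39 held a median of 23 CpG pairs, against 16 in the 13685 covered windows of all genes and 6 in all 32851 windows. The Sp motif GGGCGG, on either strand, stood in 79.5% of the 39 and in 59.2% of all covered windows, and the NF-Y motif CCAAT in 28.2% and 36.0%. The E-box CACGTG was in 7.69% and 8.17%, the Ets motif CCGGAAG in 2.56% and 12.8%. The Nrf1 and YY1 motifs were in 0 of the 39, against 1.59% and 0.46% of all covered windows. Overlapping matches of different motifs were each counted. Matches are letters in a window and not measured binding. In the sequences, written 5′ to 3′ on the gene's strand, capitals mark any of the 7 motifs searched. Cbx8 is shown because its promoter had the lowest fold change among these genes, Suz12 as the PRC2 promoter with the lowest, Bmi1 for its 6 Sp matches, and Satb1 as a window with only 5 CpG pairs. They lie at chr11:119040914-119041163 (minus strand), chr11:79992856-79993105 (plus), chr2:18676768-18677017 (plus) and chr17:51833291-51833540 (minus).
Cbx8: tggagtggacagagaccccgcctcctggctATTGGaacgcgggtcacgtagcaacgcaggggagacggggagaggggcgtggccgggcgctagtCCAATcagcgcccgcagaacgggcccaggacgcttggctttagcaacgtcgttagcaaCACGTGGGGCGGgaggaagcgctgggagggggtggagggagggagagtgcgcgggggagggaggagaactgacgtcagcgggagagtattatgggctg
Suz12: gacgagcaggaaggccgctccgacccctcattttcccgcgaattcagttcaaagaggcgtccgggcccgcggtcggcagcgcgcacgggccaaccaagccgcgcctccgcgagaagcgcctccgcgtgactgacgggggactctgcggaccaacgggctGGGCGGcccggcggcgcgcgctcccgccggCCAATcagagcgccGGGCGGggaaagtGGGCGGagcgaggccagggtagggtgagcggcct
Bmi1: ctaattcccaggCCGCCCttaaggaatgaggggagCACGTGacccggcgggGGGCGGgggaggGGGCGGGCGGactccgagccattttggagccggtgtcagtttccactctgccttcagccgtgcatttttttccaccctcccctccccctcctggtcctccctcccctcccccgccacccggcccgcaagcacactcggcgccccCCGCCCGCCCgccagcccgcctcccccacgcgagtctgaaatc
Satb1: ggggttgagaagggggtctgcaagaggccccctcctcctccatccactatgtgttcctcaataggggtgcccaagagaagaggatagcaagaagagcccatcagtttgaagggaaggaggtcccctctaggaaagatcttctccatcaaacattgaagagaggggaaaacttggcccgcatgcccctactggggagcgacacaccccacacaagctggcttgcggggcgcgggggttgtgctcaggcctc
The Cbx8, Suz12 and Bmi1 windows held 22, 37 and 21 CpG pairs. Hdac9 differed from these genes: its covered window held 2 CpG pairs and none of the 7 motifs. The lack of motifs was not particular to it. The Satb1 window shown held none, nor did the covered windows of Ezh1 and Eed, with 14 and 12 CpG pairs.

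The E2F motif TTTCGCGC, bound by factors that act in the cell cycle, stood in 2 of the 39 covered windows (5.13%) and in 0.548% of all covered windows. The matches were in windows of Dnmt1, which copies CpG methylation after replication, and Uhrf1, which guides Dnmt1 to newly copied DNA. This exact string is a narrow search: the table's own motif annotation lists an E2f factor in 30 of the 61 promoters, Ezh2, Suz12, Bmi1 and Cbx8 among them, and in 33.6% of all promoters. Only the 30 bases around each match are shown, with the motif in capitals, from chr9:20952824-20952853 (minus strand) and chr17:56304117-56304146 (plus strand).
Dnmt1: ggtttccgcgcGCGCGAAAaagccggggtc
Uhrf1: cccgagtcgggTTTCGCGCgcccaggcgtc
The promoter regions that cover these matches had nearly equal means at the stages. Dnmt1's gave 25.6, 25.9 and 29.0 CPM in the E14.5 libraries, in the order of their replicate numbers as throughout, and 25.7, 27.5 and 26.6 CPM at P0 (log2 fold change -0.01 ± 0.18 SE). Uhrf1's gave 32.7, 26.1 and 33.0 CPM at E14.5 and 31.5, 26.6 and 35.5 CPM at P0 (0.03 ± 0.20 SE). The libraries of the stages were interleaved at both.

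No promoter region of these genes passed the test between the stages, and outside promoters a single region did, in Rad21, which rose. By edgeR's quasi-likelihood test with Benjamini-Hochberg adjustment over all regions, 0 of the 61 promoters had an adjusted p under 0.05, where 0.851% of all promoters did. Of the 43 other regions 1 passed, where 6.59% of all other regions did, and the region was higher at P0, as were 2.46% of all other regions. Over all 104 regions this was 1, against 4.73% of all regions, and with DESeq2's Wald test or limma-voom it was also 0 promoters and 1 other region. At an unadjusted p under 0.05 there were 5 promoters, all lower at P0, against 8.73% of all promoters in either direction and 6.04% lower. There were 10 such other regions, 8 higher and 2 lower at P0, against 23.5% of all other regions, 13.3% higher and 10.2% lower. The stages' libraries did not overlap in 3 of the 61 promoters (16.7% of all promoters) and in 15 of the 43 other regions (27.8% of all other regions). Median log2 fold changes of P0 against E14.5 were -0.10 at these promoters and -0.10 at all promoters, and -0.01 at the other regions against 0.10 at all other regions. Promoters ran from -0.67 to 0.30, with 42 below 0, and other regions from -0.86 to 1.70, with 22 below 0.

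The precision of a single region limits these counts: the standard error had a median of 0.217 at the promoters and 0.246 at the other regions. The counts moved with single libraries: 3 of the 104 regions passed without E14.5 replicate 2, 2 without P0 replicate 2 and 2 without P0 replicate 3. The share of all regions that passed was 6.86%, 3.8% and 5.16% in those fits. It was 0.779% without E14.5 replicate 3, 1.09% without P0 replicate 1 and 2.53% without E14.5 replicate 1, each with 1 of the 104. At an unadjusted p under 0.05 the count among the 104 moved too. It was 15 in the reported fit, and ran from 7 without P0 replicate 1 to 20 without P0 replicate 3.

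**Figure D1:**
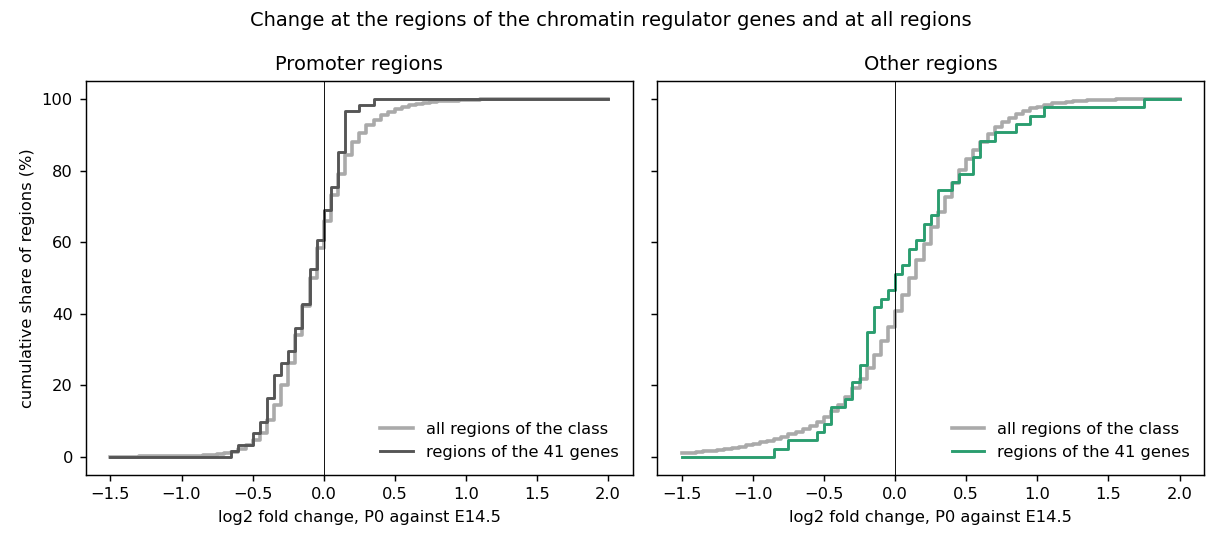
Cumulative share of regions (%) against the log2 fold change of P0 against E14.5, for promoters (left) and other regions (right), with all regions of the class in grey and the regions of the 41 genes in colour. The promoter curves follow each other around a median of -0.10, with the genes' own curve ending at 0.30, and outside promoters the genes' curve has its single far point at 1.70.

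The genes' own promoters were about as close to equal at the stages as promoters in general. A promoter region was counted as a gene's own when the table named it for the gene or when it overlapped a RefSeq promoter window of the gene. There were 42 such regions at 34 genes. The table named 38 of them for the gene, 2 of these by an older symbol, and the other 4, at Eed, Rnf2, Tet3 and Satb1, for another gene model. For Hdac1, Hdac3, Kdm6b, Chd3, Chd7 and Rad21 the table's name alone was used. In 30 of the 42 (71.4%) the stage means were within 1.25-fold of each other, against 75.4% of all promoters. Their median log2 fold change was -0.09, with 28 below 0 and 14 above. The other 19 promoter regions were named for other genes in or near the gene bodies, with a median of -0.14. Set on length, the genes' own promoters ran from 6.79 CPM per kb at a Bmi1 region to 45.2 CPM per kb at Hdac4, with a median of 13.3. Not set on length, the Hdac2 promoter had the highest mean CPM, at 96.1, 80.8 and 87.3 at E14.5 and 87.9, 54.9 and 93.3 at P0. Hdac2 is a class I deacetylase; its stages overlapped, and P0 replicate 2 was the low library (log2 fold change -0.16 ± 0.23 SE, edgeR adjusted p = 0.77). Without P0 replicate 2 the fold change at Hdac2 was 0.04. The promoter region with the lowest mean CPM was that of Bmi1 at chr2:18680745-18681953, with 9.49, 7.09 and 7.24 CPM at E14.5 and 7.60, 7.57 and 10.3 CPM at P0. The libraries of this region overlapped between the stages (0.10 ± 0.27 SE, -0.08 without P0 replicate 3). It lies 4.3 kb from the nearest RefSeq start of Bmi1. The Bmi1 promoter region over that start, at chr2:18676470-18678473, had 26.3 ± 3.83 CPM at E14.5 and 27.3 ± 9.47 CPM at P0 (SD, n = 3 each). Bmi1 is the RING finger partner that activates the PRC1 ubiquitin ligase.

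**Figure D2:**
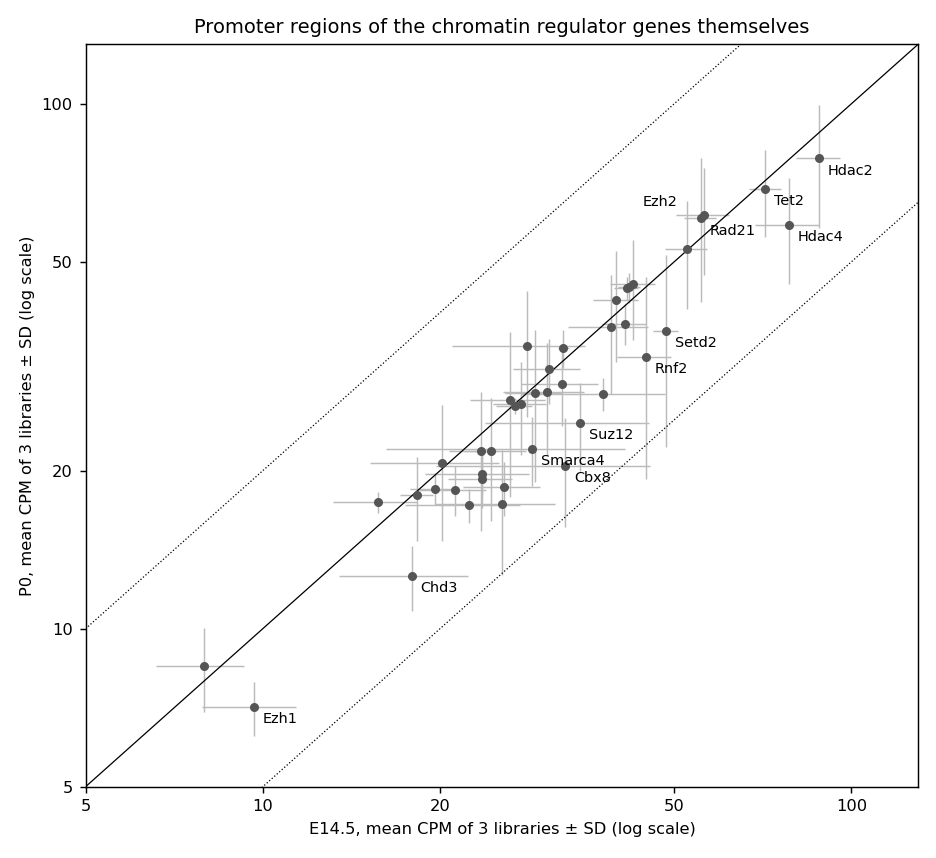
Mean CPM at P0 (vertical, log scale) against mean CPM at E14.5 (horizontal, log scale) for the genes' 42 own promoter regions, with bars of 1 SD over 3 libraries. The solid line is equality and the dotted lines are 2-fold. All points lie between the dotted lines, with Hdac2 at the top. At the bottom are Ezh1 and the Bmi1 region that does not cover the RefSeq start of the gene.

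Among the PRC2 genes, 0 of 6 regions passed (0 at an unadjusted p under 0.05), and 3 lay below 0. The promoter of Ezh2, the main methyltransferase of the complex in dividing cells, gave 57.3, 49.8 and 61.2 CPM at E14.5 and 64.3, 46.0 and 74.0 CPM at P0 (log2 fold change 0.14 ± 0.21 SE). Its stages overlapped, with P0 replicate 2 the lowest and P0 replicate 3 the highest library. Eed, which reads the mark the complex writes, stood at 0.09 ± 0.21 SE. Ezh1, the alternative methyltransferase, had a mean of 9.65 ± 1.75 CPM at E14.5 and 7.09 ± 0.834 CPM at P0 (SD, n = 3 each; -0.43 ± 0.26 SE on the log2 scale, edgeR adjusted p = 0.411). Suz12, the scaffold of the complex, gave 46.9, 27.4 and 29.5 CPM at E14.5 and 21.4, 22.5 and 30.1 CPM at P0, and here E14.5 replicate 1 was high while the other libraries overlapped (-0.48 ± 0.23 SE, edgeR adjusted p = 0.288). Jarid2, which helps recruit the complex, held the densest of the other regions. This region of 461 bp at chr13:44869566-44870026, in the gene but outside its exons, had 121 CPM per kb, a density at the 99.9th percentile of all other regions. Its libraries ran from 32.1 to 66.4 CPM at E14.5 and from 42.5 to 76.3 CPM at P0 and overlapped (0.19 ± 0.27 SE). This was the highest fold change of the 6 regions. The highest of the 6 was 0.09 without E14.5 replicate 2 and 0.40 without E14.5 replicate 1.

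At the PRC1 genes and their partner Kdm2b, 0 of 10 regions passed (1 at an unadjusted p under 0.05) and 6 lay below 0. The Cbx8 promoter, at chr11:119040632-119042095, had the lowest log2 fold change of all 61 promoters. Cbx8 is a chromodomain subunit that binds the methyl mark of PRC2. Its promoter gave 47.4, 25.2 and 25.1 CPM at E14.5 and 22.1, 15.0 and 24.0 CPM at P0. All P0 libraries lay below all E14.5 libraries, though P0 replicate 3 and 2 of the E14.5 libraries were close, and E14.5 replicate 1 was far above the rest. The log2 fold change was -0.67 ± 0.26 SE (unadjusted p = 0.023, edgeR adjusted p = 0.178), and it was -0.30 without E14.5 replicate 1. Rnf2, the ubiquitin ligase of the complex, had a mean of 44.7 ± 4.75 CPM at E14.5 and 33.0 ± 13.7 CPM at P0 (SD, n = 3 each), and P0 replicate 2 was the low library at 18.3 CPM. Ring1, its paralogue, had only the promoters of its neighbours H2-Ke6 and Rxrb in its window. Kdm2b, a demethylase that brings PRC1 to unmethylated CpG islands, had a region at chr5:122994181-122995360, 5.7 kb upstream of the nearest RefSeq start of the gene, which the table classes as exonic without being shown to be an exon of Kdm2b. It gave 15.4, 10.4 and 8.87 CPM at E14.5 and 7.50, 9.08 and 7.97 CPM at P0. E14.5 replicate 3 and P0 replicate 2 overlapped there (-0.50 ± 0.26 SE, edgeR adjusted p = 0.334), and without E14.5 replicate 1 the value was -0.24.

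Genes of DNA methylation and its removal had 19 regions, of which 0 passed (2 at an unadjusted p under 0.05). Dnmt3a, a de novo methyltransferase, had 6 of them. Its promoter region inside the gene, at chr12:3890954-3893538, gave 24.6, 22.6 and 30.0 CPM at E14.5 and 18.2, 20.9 and 16.6 CPM at P0. Every P0 library lay below every E14.5 library, by a narrow gap between E14.5 replicate 2 and P0 replicate 2 (log2 fold change -0.47 ± 0.20 SE, edgeR adjusted p = 0.205). The upstream Dnmt3a promoter at chr12:3805864-3809028 stood at -0.05 ± 0.22 SE. An intergenic region ahead of Dnmt3a, at chr12:3791120-3792841, gave 21.5, 21.4 and 28.8 CPM at E14.5 and 13.8, 13.9 and 22.8 CPM at P0. Replicate 3 was the high library at both stages and the stages overlapped (-0.49 ± 0.23 SE, edgeR adjusted p = 0.279; -0.80 without P0 replicate 3). Dnmt3b, the other de novo enzyme, stood at -0.20 ± 0.20 SE.

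The Tet genes had the highest value of this class. Tet2, a methylcytosine dioxygenase, had a region in the gene outside exons at chr3:133522015-133522736, 22.0 kb from the nearest RefSeq start. It gave 5.34, 3.42 and 4.32 CPM at E14.5 and 7.91, 12.3 and 6.24 CPM at P0. Every P0 library lay above every E14.5 library, and P0 replicate 2 was the highest. The log2 fold change was 1.00 ± 0.33 SE (edgeR adjusted p = 0.102). Without P0 replicate 3 it was 1.19 and passed (adjusted p = 0.0466), and without P0 replicate 2 it was 0.70 (adjusted p = 0.321). The Tet2 promoter had 71.4 ± 4.43 CPM at E14.5 and 68.8 ± 13.0 CPM at P0 (SD, n = 3 each). Tet3 had a promoter region at chr6:83442762-83444337 with 17.2, 17.1 and 12.7 CPM at E14.5 and 17.9, 17.9 and 16.5 CPM at P0. Its stages overlapped, with E14.5 replicate 3 the low library (0.15 ± 0.21 SE, edgeR adjusted p = 0.76), and the value was 0.02 without that library. The 3 Tet1 regions ran from -0.21 to 0.37.

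**Figure D3:**
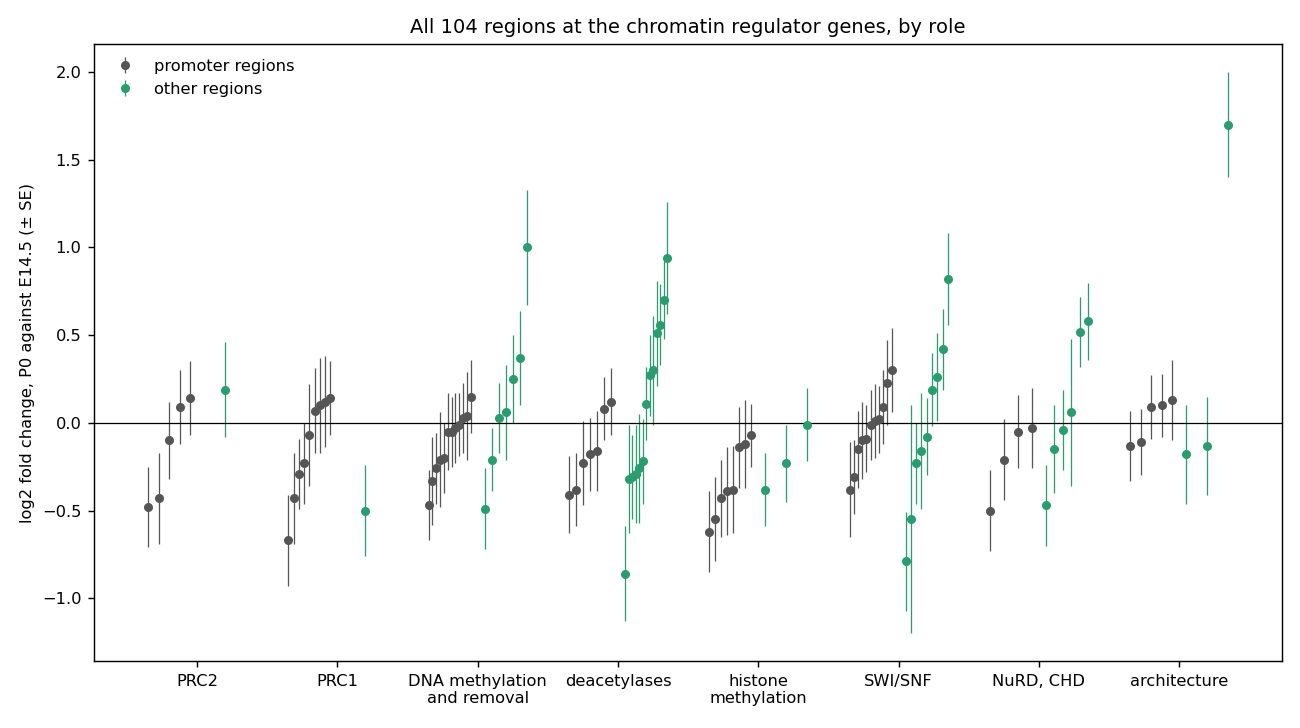
Log2 fold change of P0 against E14.5 for all 104 regions, with bars of 1 SE, grouped by the role of the gene and split into promoters (grey) and other regions (green). The Rad21 region at 1.70 is the highest, followed by a Tet2 region at 1.00, and the 11 regions of the histone methylation genes all lie at or below -0.01.

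The deacetylases had 20 regions, 13 of them at Hdac9, the gene with the most regions, and 0 passed (4 at an unadjusted p under 0.05). Hdac9 is a class IIa deacetylase that acts as a corepressor of Mef2 factors. All 13 midpoints lay inside its RefSeq gene body, although the table's annotation placed 10 of them between genes, and its promoter region at chr12:34526717-34529526 surrounds a start inside that body. This promoter gave 31.7, 33.1 and 32.3 CPM at E14.5 and 33.1, 37.4 and 32.0 CPM at P0, and the stages overlapped (log2 fold change 0.08 ± 0.18 SE). The regions around it did not share a direction: 6 of the 12 lay below 0 and 6 above. The 2 regions nearest the threshold lay on opposite sides.

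At chr12:34351092-34352432, downstream of the Hdac9 promoter, the libraries gave 12.5, 25.6 and 16.2 CPM at E14.5 and 11.5, 10.1 and 8.60 CPM at P0. All P0 libraries lay below all E14.5 libraries, and E14.5 replicate 2 was far above the others. The log2 fold change was -0.86 ± 0.27 SE (edgeR adjusted p = 0.0862), and -0.53 without E14.5 replicate 2. At chr12:34766050-34768540, upstream of the promoter, the values were 15.8, 18.1 and 10.9 CPM at E14.5 and 26.9, 24.5 and 21.5 CPM at P0. All P0 libraries lay above all E14.5 libraries there (0.70 ± 0.22 SE, edgeR adjusted p = 0.0896), and the region passed without E14.5 replicate 2, at 0.85 (adjusted p = 0.0473), while without E14.5 replicate 3 it stood at 0.51 (adjusted p = 0.384). A smaller region at chr12:34683210-34683980 gave 3.68, 6.48 and 4.32 CPM at E14.5 and 11.6, 9.69 and 6.87 CPM at P0. The stages did not overlap, but E14.5 replicate 2 and P0 replicate 3 nearly met (0.94 ± 0.32 SE, edgeR adjusted p = 0.11). Without E14.5 replicate 2 the value was 1.21 (adjusted p = 0.0509), and without P0 replicate 1 it was 0.74 (adjusted p = 0.452). The table's motif annotation listed Six2, the homeodomain factor that defines nephron progenitors, in the region at chr12:34351092-34352432 and in that at chr12:34683210-34683980, which had opposite signs. An exonic region at chr12:34406826-34409234 (0.56 ± 0.23 SE, edgeR adjusted p = 0.2) also passed without E14.5 replicate 2, at 0.89 (adjusted p = 0.0246), and stood at 0.39 without E14.5 replicate 1 (adjusted p = 0.537).

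E14.5 replicate 2 was the highest E14.5 library in 10 of the 12 Hdac9 regions outside the promoter. Their sum was 140, 192 and 144 CPM at E14.5 and 185, 179 and 159 CPM at P0. The other E14.5 libraries lay below every P0 library, and E14.5 replicate 2 lay above every P0 library. Values without it stand above for the 4 Hdac9 regions described outside the promoter. Among the other deacetylases, Hdac1 stood at -0.38 ± 0.21 SE and Hdac4 at -0.41 ± 0.22 SE at their own promoters (edgeR adjusted p = 0.36 and 0.337). The table named both promoter regions in the window of Hdac3 for other genes, Diap1 and Rell2, and their overlap with an Hdac3 start was not assessed. A region in the Hdac2 gene at chr10:36998508-36999690 had no overlap between the stages, at 5.36 ± 1.08 CPM at E14.5 and 7.69 ± 1.58 CPM at P0 (SD, n = 3 each; edgeR adjusted p = 0.389).

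**Figure D4:**
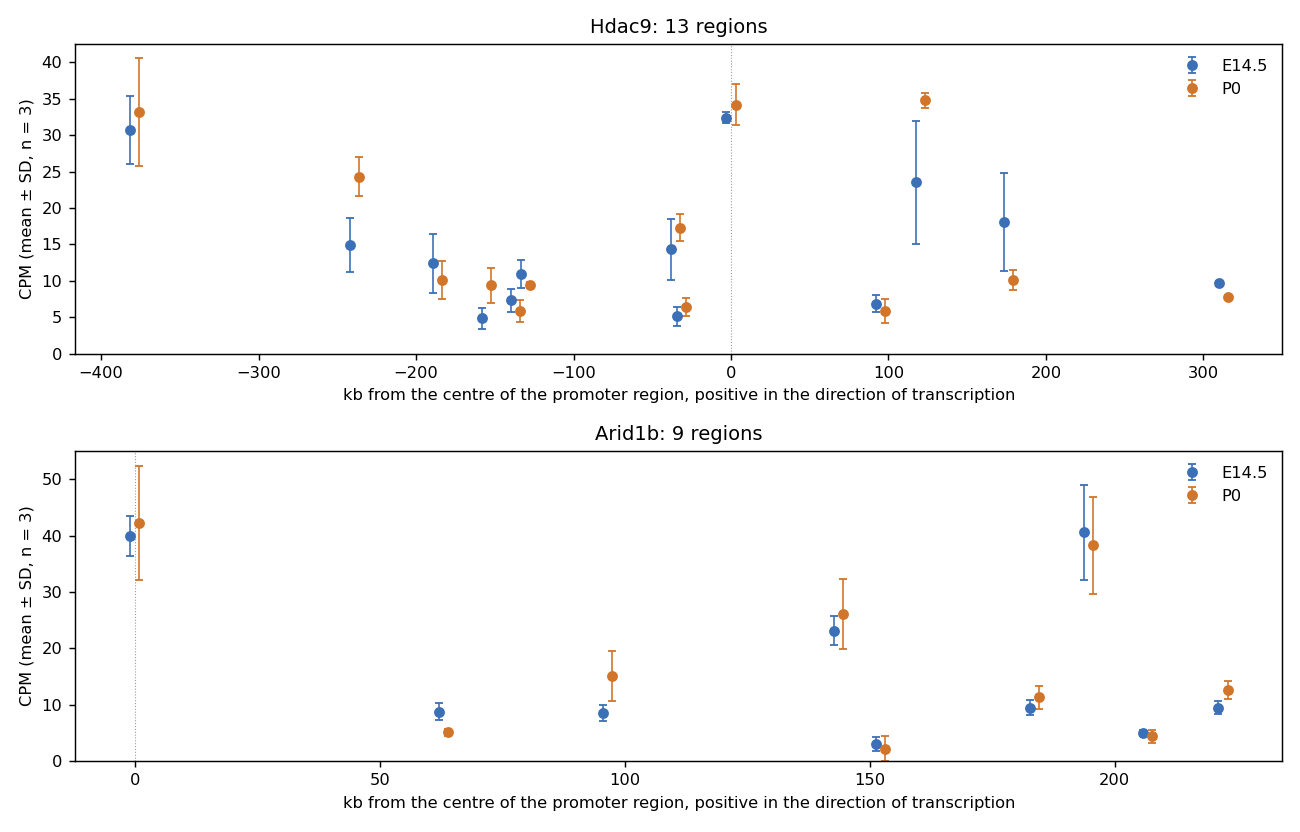
Mean CPM (± SD, n = 3) at E14.5 (blue) and P0 (orange) for each region of Hdac9 (top) and Arid1b (bottom), against distance in kb from the centre of the gene's promoter region, positive in the direction of transcription. The promoters at 0 overlap between stages, and both genes have regions with a higher and regions with a lower P0 mean.

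At the genes Kdm5b, Kdm6b, Kmt2a, Kmt2d and Setd2 of histone methylation, 0 of 11 regions passed (2 at an unadjusted p under 0.05). Their log2 fold changes ran from -0.62 to -0.01 with a median of -0.38. Of the 11, 3 were the genes' own promoters, 5 were promoters of the neighbours Tmem25, Prkag1, Rhebl1, Nradd and Lsmd1, and 3 were other regions. Over all genes, 9300 of 14097 promoters and 11989 of 29426 other regions lay below 0. The lowest of the 11 was a region in the window of Kmt2d at chr15:98880705-98882187, the promoter of the neighbour Rhebl1. Its libraries gave 33.9, 22.4 and 20.9 CPM at E14.5 and 15.8, 13.6 and 20.5 CPM at P0. The stages did not overlap, though E14.5 replicate 3 and P0 replicate 3 nearly met, and E14.5 replicate 1 was the highest library (log2 fold change -0.62 ± 0.23 SE, edgeR adjusted p = 0.159; -0.37 without E14.5 replicate 1). Kmt2d writes the methyl mark of enhancers. Its own promoter gave 30.7, 19.1 and 26.7 CPM at E14.5 and 13.6, 15.7 and 22.5 CPM at P0, where E14.5 replicate 2 and P0 replicate 3 overlapped (-0.55 ± 0.24 SE, edgeR adjusted p = 0.223). Kmt2a, a methyltransferase of active promoters and Hox genes, stood at -0.43 ± 0.22 SE and Setd2, which methylates histones along transcribed genes, at -0.38 ± 0.25 SE. The table named no promoter region for the demethylase genes Kdm5b and Kdm6b, and overlap with a start was not assessed at Kdm6b. Their 3 regions outside promoters ran from -0.38 to -0.01.

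How many of these 11 regions lay below 0 depended on the scaling and the libraries. With TMM factors taken from promoters, which raise the median over all regions from 0.01 to 0.12 on the log2 scale, 9 of the 11 lay below 0, and with total counts 10 did. It was also 10 with limma-voom and without P0 replicate 1. Without P0 replicate 2 the count was 10 and the median -0.12, leaving out E14.5 replicate 1 gave 10 and a median of -0.24, and leaving out E14.5 replicate 3 gave 9.

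The SWI/SNF genes had 20 regions, 9 of them at Arid1b, and 0 passed (2 at an unadjusted p under 0.05). Arid1b is a DNA-binding subunit of the BAF form of the complex. Its promoter stood at 0.09 ± 0.21 SE, and regions in the gene outside exons went either way. That at chr17:5091238-5092693 averaged 8.50 ± 1.49 CPM at E14.5, with a highest library of 9.98 CPM, and 15.0 ± 4.43 CPM at P0, with libraries from 10.7 to 19.6 CPM (SD, n = 3 each). All P0 libraries lay above all E14.5 libraries, with P0 replicate 2 close to E14.5 replicate 2 (log2 fold change 0.82 ± 0.26 SE, edgeR adjusted p = 0.0928). It passed without P0 replicate 2, at 1.00 (adjusted p = 0.0465), and had an adjusted p of 0.475 without P0 replicate 1. The region at chr17:5058041-5058790 gave 8.07, 10.4 and 7.71 CPM at E14.5 and 4.58, 4.84 and 5.68 CPM at P0, so that the stages were apart in the other direction (-0.79 ± 0.28 SE, edgeR adjusted p = 0.131). The other 6 Arid1b regions outside the promoter ran from -0.55 to 0.42.

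The highest promoter value of all 61 was that of a Smarca2 region at chr19:26747089-26749038, within the gene. Smarca2 is an ATPase of the complex. The libraries gave 20.6, 34.9 and 28.8 CPM at E14.5 and 34.9, 25.1 and 43.7 CPM at P0 and were interleaved (log2 fold change 0.30 ± 0.24 SE, edgeR adjusted p = 0.551), and the value was 0.08 without P0 replicate 3. The upstream Smarca2 promoter was level, at 0.01 ± 0.21 SE. In the window of Smarcd3, a subunit of the complex in heart and muscle, the promoter of the neighbour Chpf2 at chr5:24586281-24587793 gave 10.9, 11.0 and 8.06 CPM at E14.5 and 13.4, 9.99 and 11.8 CPM at P0. These overlapped (0.23 ± 0.24 SE, edgeR adjusted p = 0.666; 0.10 without E14.5 replicate 3). Smarcd3's own promoter stood at -0.01 ± 0.20 SE. Smarca4, the alternative ATPase, had 28.7 ± 12.5 CPM at E14.5 and 22.0 ± 3.28 CPM at P0 (SD, n = 3 each), with E14.5 replicate 1 the high library at 42.6 CPM.

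Among the NuRD and CHD remodellers, 0 of 10 regions passed (3 at an unadjusted p under 0.05). Chd7, which is mutated in CHARGE syndrome, had 5 of them. The stages did not overlap in 3 of its 4 regions outside the promoter, where 27.8% of all other regions had no overlap. At chr4:8853828-8855077, in an exon, the libraries gave 11.5, 12.7 and 12.4 CPM at E14.5 and 8.12, 8.17 and 10.0 CPM at P0. All P0 libraries lay below the E14.5 libraries, which were close together (log2 fold change -0.47 ± 0.23 SE, edgeR adjusted p = 0.292). The regions at chr4:8729672-8731466 and chr4:8876222-8877738 were apart in the other direction, at 0.52 ± 0.20 SE and 0.58 ± 0.22 SE (edgeR adjusted p = 0.153 and 0.164). The Chd7 promoter itself stood at -0.03 ± 0.23 SE. The Chd3 promoter, of an ATPase of the NuRD complex, had 17.9 ± 4.44 CPM at E14.5 and 12.6 ± 1.79 CPM at P0 (SD, n = 3 each; edgeR adjusted p = 0.266). Chd4, the paralogue, had no promoter region of its own, and its 3 regions ran from -0.21 to 0.06.

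The architectural genes held the 1 region that changed. It lies in Rad21, the kleisin subunit that closes the cohesin ring, in the gene outside exons at chr15:51987138-51987700, and is 563 bp long. Its E14.5 libraries held 27, 36 and 32 counts, or 3.20, 3.15 and 3.74 CPM, and its P0 libraries 84, 91 and 133 counts, or 8.75, 13.8 and 10.5 CPM. The lowest P0 library was well above the highest E14.5 library, and the E14.5 libraries were nearly equal. Mean accessibility rose from 3.36 ± 0.324 CPM to 11.0 ± 2.55 CPM (SD, n = 3 each), which is 1.70 ± 0.30 SE on the log2 scale (edgeR adjusted p = 0.00517). It passed in all 16 alternative fits of the region table, with adjusted p from 4.78e-05 to 0.0364 and log2 fold changes from 1.52 to 1.83. The alternative without a filter could not differ from the reported fit, because the filter removed 0 regions. The Rad21 promoter, a few kb away, did not pass. Located at chr15:51990104-51992323, it gave 59.3, 54.7 and 52.5 CPM at E14.5 and 66.4, 39.8 and 75.3 CPM at P0, which overlapped (0.13 ± 0.23 SE, adjusted p = 0.824). The difference between these regions of Rad21 was not tested. Marker lists gave these values beside it. Regions outside promoters of the early nephron epithelium list summed to 152 to 164 CPM at E14.5 and 204 to 254 CPM at P0, with 1 of 10 passing. The 11 promoter regions of that list had a median log2 fold change of -0.25. They summed to 373 to 406 CPM at E14.5 and 296 to 397 CPM at P0, ranges that overlapped, with 0 passing. Regions outside promoters of the endothelial list summed to 97.6 to 118 CPM and 98.5 to 111 CPM, with 1 of 6 passing. The part of either cell type in the Rad21 value was not tested.

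Ctcf, the zinc finger protein that stops cohesin at its sites, had a single region, its promoter, at 32.3 ± 4.79 CPM at E14.5 and 29.3 ± 4.97 CPM at P0 (SD, n = 3 each). Satb1, a chromatin organiser, had 5 regions from -0.18 to 0.10, and 2 of its 3 promoter regions overlap, so that they share reads.

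**Figure D5:**
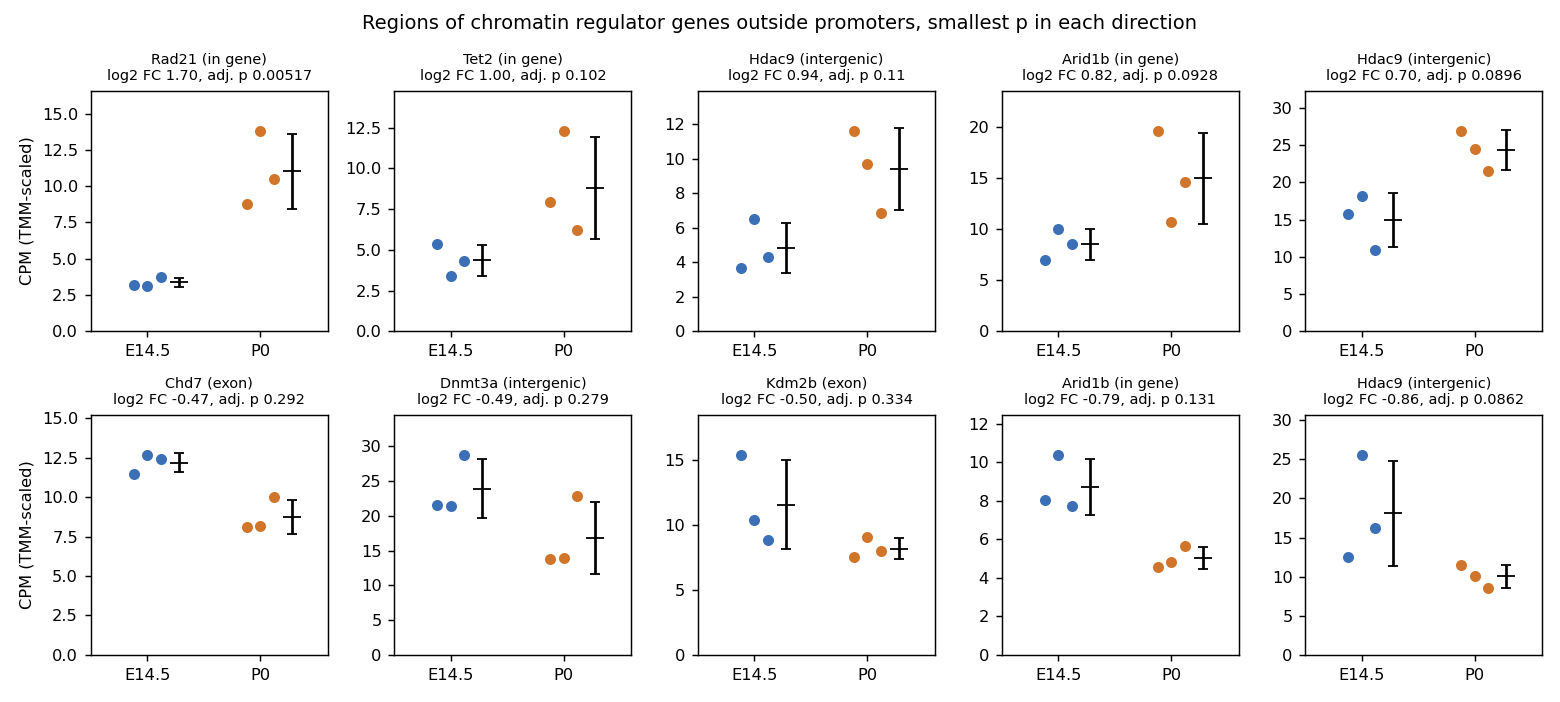
CPM in each library (points) with mean and SD (bars) at E14.5 and P0, for the 5 regions outside promoters with the smallest p in each direction, with the class the table gives each in brackets. The Rad21 region (top left) goes from 3.15 to 3.74 CPM at E14.5 to 8.75 to 13.8 CPM at P0, and the stages also do not overlap in the other panels except those of Dnmt3a and Kdm2b.

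Counts were also summed per gene before the test. Of 38 promoter sums 0 passed, where 0.12% of the 14175 genes with promoter sums did, and of 15 sums over other regions 1 passed, where 1.05% of 7017 did. That was Rad21 (edgeR adjusted p = 0.015), whose sum holds only the region above. In this smaller table its adjusted p was 0.0515, 0.0743 and 0.0866 without E14.5 replicates 1, 2 and 3, at log2 fold changes of 1.67, 1.64 and 1.78. Of the 38 promoter sums, 3 had an unadjusted p under 0.05. The share of all promoter sums at that cut was not computed, so the 3 have no background beside them. They were those of Cbx8, Kmt2d and Suz12, at -0.66, -0.54 and -0.48 (edgeR adjusted p = 0.289, 0.325 and 0.404). All had E14.5 replicate 1 as the highest library in their own promoter regions. The Kmt2d sum holds its own promoter and 2 promoters of neighbours.

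Other genes of the same pathways were tested in the same fit. Of 121 further genes, 113 had a region, and 2 of their 219 regions passed. These were 1 of 161 promoters (0.621%, against 0.851% of all promoters) and 1 of 58 other regions (1.72%, against 6.59% of all other regions). In the window of Asxl3, a partner of the deubiquitinase that opposes PRC1, a promoter annotated to another gene model had 7.40 ± 1.89 CPM at E14.5 and 14.4 ± 1.84 CPM at P0 (SD, n = 3 each; log2 fold change 0.95 ± 0.25 SE, edgeR adjusted p = 0.0439). In Chd9, a CHD remodeller, a region at chr8:90861740-90862441 had 10.8 ± 1.30 CPM at E14.5 and 5.53 ± 0.473 CPM at P0 (SD, n = 3 each; -0.97 ± 0.26 SE, edgeR adjusted p = 0.045). The stages did not overlap in either. Median log2 fold changes at promoters were -0.23 for each of the Polycomb, deacetylase and corepressor, and NuRD, CHD and ISWI lists, -0.16 for SWI/SNF, -0.15 for DNA methylation and for histone methylation, and -0.03 for the architectural genes, against -0.10 at all promoters. At other regions they were 0.44 for DNA methylation (4 regions), 0.30 for deacetylases and corepressors (4) and for SWI/SNF (4), 0.21 for histone methylation (8), 0.12 for the architectural genes (7), 0.07 for Polycomb (19) and -0.20 for NuRD, CHD and ISWI (12), against 0.10 at all other regions.

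Just inside the 10 kb edge of the window lay the Dnmt3a region above, 9.58 kb from the gene, and the Eif3g promoter 8.81 kb from Dnmt1, with a log2 fold change of -0.33. Just outside it lay the Mmp11 promoter, 10.92 kb from Smarcb1, at 0.21, and a region 11.1 kb from Rad21, at -0.02. In the authors' deposited table, 2 of the 104 regions were classed as opening from E14.5 to P0 and 0 as closing, against 2.86% and 2.48% of all regions. These were the Rad21 region, with a deposited log2 fold change of 1.57 and adjusted p of 0.0331, and the Arid1b region at chr17:5091238-5092693, with a deposited adjusted p of 0.0802 in the authors' deposited table.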

How the data were processed

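Per the file headers, the deposited values are unnormalised counts, in 6 columns of libraries and a row per region. The build is mm10, per the submitters' processing notes. The aligner, peak caller, counting rule, handling of duplicates and any Tn5 shift are not given in the sources used here, and what they do to the values was not tested. Beside the counts stand results of the authors' own stage comparison, whose model is likewise not given: their log2 fold change, their score (a t statistic) and their p-value. Promoter, exon and gene classes are the table's own.

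Of 45489 rows, 1966 repeated a region and were dropped, and 294 distinct regions that overlap an earlier one were kept. Counts were tested with edgeR 4.0.16 (TMM scaling, filterByExpr, which removed 0 regions, quasi-likelihood F test, stage as the only term), with Benjamini-Hochberg adjustment over 43523 regions and a threshold of 0.05. The standard error is the log2 fold change divided by the square root of F. CPM use TMM-scaled totals. Alternatives used DESeq2 1.42.0 and limma 3.58.1. Gene spans and promoter sequences are RefSeq's (GRCm38.p6).

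The genes and lists were chosen with earlier results of these data known. Values per library are given for every region past the threshold, for the 3 promoters and 5 other regions with the smallest p in each direction, and for the promoters with the highest and lowest CPM. The values per library of Ezh2, Suz12, Dnmt1, Uhrf1, Kmt2d and Rad21 promoters and of the Hdac9 promoter were added after their values were seen.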

Additional observations from a re-analysis of the deposited data

How the results depend on the processing

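In fits of single regions, the Rad21 call and the absence of a promoter call held under all alternatives run. The median at the 61 promoters, -0.10, stayed below 0 but moved: it was -0.01 with TMM factors from promoters, -0.04 with total counts, and -0.27 to -0.02 when each library was left out, lowest without P0 replicate 3 and highest without P0 replicate 2, where the median of all promoters was -0.21 and -0.03. The number of these 104 regions that passed, 1 in the reported fit and Rad21 alone, ran from 1 to 3 when each library was left out in turn, as did the number outside promoters, and was 4 at a threshold of 0.1, both over all 104 and outside promoters, where 8.02% of all regions and 10.9% of all other regions passed. Over all regions, 852 passed with TMM factors from promoters, and 339 to 2987 when each library was left out, against 2059. Those higher at P0 numbered 778 in the reported fit, 56 without E14.5 replicate 3 and 1692 without E14.5 replicate 2. The median of the 43 regions outside promoters, -0.01, had no stable sign: it was 0.09 with TMM factors from promoters (0.22 for all regions outside promoters), 0.05 with total counts and -0.09 to 0.06 when each library was left out. Summed per gene, 0 to 1 sums outside promoters passed when each library was left out, and Rad21 lost its call without any 1 of the E14.5 libraries, a check chosen after seeing the data. The sign also turned at the Hdac2 promoter without P0 replicate 2 (-0.31 to 0.04 over the libraries left out) and at the Bmi1 region without P0 replicate 3 (-0.08 to 0.25), and neither passed in any fit. The replicate numbers did not pair the libraries: the correlations of same-numbered deviations were 0.067, -0.14 and 0.077. With the replicate block 1834 regions passed, 1 of them among these 104. P0 replicate 2, with 6492996 counts, limits what its values can show.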
